A study of Mus musculus with 39 samples.

Results

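The livers of untreated mice without E47 were compared with those of their wild-type littermates. The labels gave the members: 6 libraries titled E47KO and 5 titled wildtype, all from untreated liver, which made 11 of the 39 samples in the series. E47KO mice (E47-/-) are global knockouts, so every cell of the body lacks the protein, blood cells included. All animals were males of the C57BL/6 strain, 10 to 16 weeks old, kept on chow with 12 h of light a day, and no steroid was given to either genotype. The other samples of the series came from mice under synthetic or natural glucocorticoids, and these untreated livers are the only ones in which the effect of the genotype alone can be read. Poly(A) RNA was sequenced from stranded libraries. The labels name the replicates only as separate samples of a group, so p-values measure the spread between these samples.

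E47 and its splice partner E12 are both made from Tcf3. They are class I basic helix-loop-helix factors, or E proteins, which bind the short DNA motif called the E-box as dimers. Id proteins lack the DNA-binding region, pair with E proteins and keep them off DNA. E proteins are best known for their place in lymphocyte development, and precursors without E47 do not commit to the B lineage. In liver, E47 has been studied as a partner of the glucocorticoid receptor (GR), the nuclear receptor through which corticosterone acts on genes of glucose and lipid metabolism.

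Depth was 31.7 to 39.8 mega-counts (M) in genes per library, and 13739 genes passed the filter on low counts. Levels are given as CPM, counts per mega-count of the scaled library total, and fold changes as log2 values of E47KO against wild type (WT) with their standard error (SE). The library numbers in the titles fall into 2 series: the first holds 1 E47KO and 2 WT libraries and the second 5 and 3. The labels do not say what the number series mark. They differed widely, with 5088 genes (37.0%) past an adjusted p of 0.05 between them and principal component 1, which carried 41.1% of the variance, setting them apart, whereas none of the first 3 components separated the genotypes. Counts and fold changes come from the test on genotype alone, and those with the series as a covariate, or within the second series, stand beside many of the results that they moved. Hepatocyte genes dominated all libraries, and Alb, which encodes serum albumin, stood at 66891 ± 17128 CPM in E47KO and 63658 ± 12649 CPM in WT livers (SD, n = 6 and 5).

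Tcf3 itself (ENSMUSG00000020167, mm10 chromosome 10, 80409514 to 80433647, minus strand) did not differ between the genotypes by the test. The E47KO libraries ran from 10.3 to 12.6 CPM with a median of 11.1 CPM. The WT libraries held 12.4, 16.8, 10.7, 11.9 and 11.1 CPM. The groups overlapped, and the highest value, WT replicate 2, stood apart from the other 4 WT libraries. The log2 fold change was -0.15 (SE 0.12), and within the second series it was 0.04. Gene counts sum over E12 and E47, so this level does not check the knockout.

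Few genes passed the threshold between the genotypes in untreated liver. At an adjusted p of 0.05 by edgeR's quasi-likelihood test, 4 of 13739 genes differed (0.0291%), 1 higher in E47KO (0.00728%) and 3 lower (0.0218%). DESeq2 called 20. The 4 include the pseudogene Gm9855, which rose, and Tdg and Cd79a, which fell. Gm9855 and Cd79a each passed the filter on low counts through a single genotype. At an unadjusted p under 0.05 there were 513 genes (3.73%), 201 higher (1.46%) and 312 lower (2.27%). These shares are the background for every count of list members below. For counts with the series as covariate the shares at that level were 2.15% higher and 2.56% lower, and within the second series 1.66% and 1.75%. The libraries of the genotypes did not overlap for 54 tested genes (0.393%), 19 of them higher in E47KO (0.138%) and 35 lower (0.255%). The median log2 fold change of all tested genes was -0.01.

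Genes of B lymphocytes were read less in E47KO livers than in WT livers. Cd79a (ENSMUSG00000003379, mm10 chromosome 7, 24897381 to 24902197, plus strand) encodes a signalling chain of the B cell receptor. Among the 6 E47KO libraries 4 had 0 counts and the others 1 count each, a maximum of 0.0324 CPM. WT values were 0.758, 0.538, 0.486, 0.293 and 0.457 CPM, from 12 to 23 counts. No E47KO library came near the lowest WT library. Against a floor of 3 counts in each library Cd79a fell at least 6.17-fold (adjusted p = 0.00275, quasi-likelihood test of edgeR, Benjamini-Hochberg), and it passed within the second series as well (adjusted p = 0.0469). With 0 or 1 count in each E47KO library, Cd79a passed the filter on low counts through the WT libraries alone. Its p-values are therefore given only as a description.

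The 28 genes of the B cell list were mostly read at a few counts per library. Of all 28, 27 had a higher mean count in WT, and in 16 every E47KO library had fewer counts than every WT library. Over all 24012 genes with a count in any library, 40 were separated in this way (0.167%), these 16 included. Only 11 of the 28 passed the filter, some of them through the WT libraries alone, and these can be given only as a description: 5 were lower at an unadjusted p under 0.05 against 2.27% of all tested genes, and their median log2 fold change was -0.87, or -0.58 with the series as covariate. Within the second series 4 of the 11 were lower at that level, where 1.75% of all tested genes were. In whole liver, fewer B cells and less of each RNA per cell cannot be told apart.

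Several genes of the mature B cell were not read at all without E47. Of the 17 members under the filter, 6 had 0 counts in all 6 E47KO libraries: Ighd, Iglc1, Iglc2, Pax5, Fcer2a and Fcmr. Ighd, the constant part of the IgD heavy chain, had 33, 32, 44, 15 and 7 counts in the WT libraries. Pax5, the factor that holds cells in the B lineage, had 4, 13, 21, 9 and 11 counts, and Fcmr, the Fc receptor for IgM, had 12, 9, 12, 5 and 7. All 3 genes were thus present in every WT library and in no E47KO library. Ms4a1 (CD20) showed 7, 5, 13, 8 and 3 counts in WT and a single count in 1 E47KO library. Cxcr5, the receptor that guides B cells into follicles, showed 6, 8, 7, 11 and 7 counts in WT and at most 1 in E47KO. A count of 0 leaves room for up to 3 counts per library, and this limit covers counting error only.

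**Figure D1:**
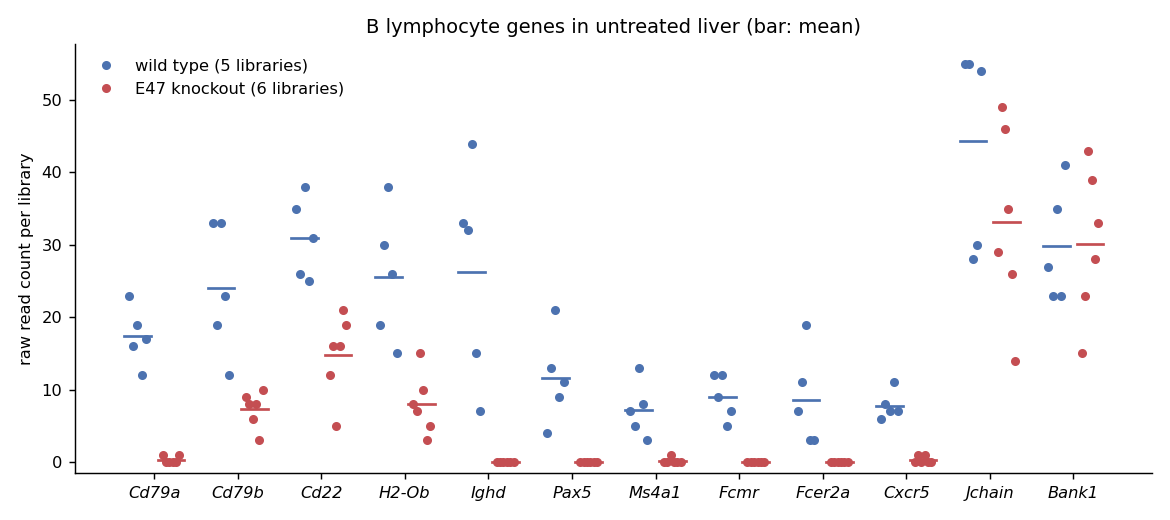
Raw read counts of 12 genes of B lymphocytes and antigen presentation in untreated liver, with a point for each WT (blue, n = 5) and E47KO (red, n = 6) library and a bar for the mean. For Ighd, Pax5, Fcmr and Fcer2a all E47KO points lie at 0 counts and all WT points above it, whereas for Jchain and Bank1 the genotypes mix.

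The second signalling chain of the receptor, Cd79b (ENSMUSG00000040592), kept a low level. Its E47KO libraries ran from 0.0797 to 0.292 CPM with a median of 0.215 CPM. WT livers held 1.09, 0.639, 0.843, 0.561 and 0.323 CPM. The groups did not overlap, but the difference missed the threshold (log2 fold change -1.76, SE 0.36, adjusted p = 0.635 by edgeR, and 0.0280 by DESeq2, which called it). The E47KO counts of Cd79b were too low to pass the filter on low counts without the WT libraries. Its separation and p-values are therefore given only as a description. Cd22, an inhibitory co-receptor, ran from 0.118 to 0.558 CPM in E47KO against 1.15, 0.875, 0.971, 0.610 and 0.834 CPM in WT (log2 fold change -1.12, SE 0.32). Cd22 was separated by genotype too and did not pass the adjusted threshold by edgeR or DESeq2.

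The genotypes overlapped for other members of the B cell list. Ighm, the IgM heavy chain, ran from 1.28 to 9.07 CPM in E47KO, and WT held 21.0, 4.34, 4.91, 5.12 and 4.82 CPM. The groups overlapped, and the fold change of -0.87 became -0.12 without WT replicate 1, the highest library. Igkc, the kappa light chain, ran from 1.39 to 3.58 CPM in E47KO against 9.72, 5.72, 1.56, 2.66 and 6.08 CPM in WT. Its log2 fold change was -1.08 (SE 0.42), and -0.54 within the second series. Jchain, which joins IgM and IgA into polymers, had 14 to 49 counts in E47KO and 28 to 55 in WT. Bank1, a scaffold of B cell receptor signalling, had 15 to 43 counts in E47KO against 23 to 41 counts in WT, and Cd72, an inhibitory co-receptor, a median of 58.5 against 46 counts. Immunoglobulin constant genes share near-identical stretches, so their counts are uncertain.

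Promoters are shown for Cd79a and for H2-Ob, a B cell gene of antigen presentation described next, because E47 acts through the E-box, written CANNTG, with CAGGTG and CAGCTG as its preferred forms. Sequences come from the 250 bases before the transcript start in RefSeq (GRCm38.p6), both on the plus strand, and capitals mark each E-box. The RefSeq start of Cd79a lies inside the Ensembl-based gene given above, and the first 154 of these bases are shown for it.
Cd79a, chr7:24897247-24897400: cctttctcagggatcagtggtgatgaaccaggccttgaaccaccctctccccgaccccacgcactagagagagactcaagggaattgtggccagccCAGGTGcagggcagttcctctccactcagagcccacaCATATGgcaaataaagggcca
H2-Ob, chr17:34238655-34238904: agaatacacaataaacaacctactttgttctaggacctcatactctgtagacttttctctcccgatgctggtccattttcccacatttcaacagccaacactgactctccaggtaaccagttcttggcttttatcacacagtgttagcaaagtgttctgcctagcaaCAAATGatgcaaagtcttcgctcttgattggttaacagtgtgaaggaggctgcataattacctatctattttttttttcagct

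The Cd79a window held CAGGTG starting 154 bases before the transcript start and CATATG 117 bases before it, and the H2-Ob window held CAAATG 83 bases before it. CANNTG reads the same on both strands as a pattern, and it contains the other motifs searched. In windows of this length, 21753 of 32851 promoters held it (66.2%), as did 15 of the 18 promoters found for 15 genes of the B cell list (83.3%). CAGGTG, searched on both strands and so also as CACCTG, was in 17.2% of all promoters and in 7 of the 18 (38.9%). CAGCTG was in 13% and in 3 of the 18 (16.7%). These are matches of letters and say nothing of binding.

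Among the 9 MHC class II genes tested, which present antigen to T cells, 7 had a positive and 2 a negative fold change. The 2 were H2-Ob and H2-DMb2, which are forms of B cells. The list also held H2-Oa, which encodes the alpha chain paired with H2-Ob, and H2-Oa was not among the tested genes with a negative fold change. H2-Ob (ENSMUSG00000041538), the beta chain of H2-O, ran from 0.0797 to 0.353 CPM in E47KO with a median of 0.226 CPM. In WT there were 0.626, 1.01, 0.971, 0.634 and 0.404 CPM. No value of 1 genotype fell within the range of the other, at a log2 fold change of -1.74 (SE 0.35, adjusted p = 0.635 by edgeR and 0.0161 by DESeq2). The E47KO counts of H2-Ob were too low to pass the filter on low counts without the WT libraries. Its separation, its p-values and its place in the counts below are therefore given only as a description. H2-DMb2 had a log2 fold change of -1.23 (SE 0.44) with overlapping groups. The class II genes that macrophages and dendritic cells share were at fold changes of 0.27 (SE 0.17) for Cd74, 0.21 (SE 0.23) for H2-Aa and 0.65 (SE 0.31) for Ciita, their master regulator. Of the 9 class II genes tested, 2 were thus lower (2.27% of all genes were) and 0 higher at an unadjusted p under 0.05. None passed the adjusted threshold by edgeR, and 1, H2-Ob, did by DESeq2. With the series as covariate 1 gene, H2-Eb1, a beta chain of the classical class II molecules, was higher (2.15% of all genes were), as it was within the second series (1.66%).

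Markers of other blood and liver cells were counted in the same way. Of 12 T cell genes tested, 7 had a positive and 5 a negative fold change, and the median was 0.03. At an unadjusted p under 0.05, 2 were higher (1.46% of all genes were) and 0 lower, and 3 were higher with the series as covariate or within the second series. Trac, the constant part of the T cell receptor alpha chain, ran from 0.250 to 0.422 CPM in E47KO with a median of 0.311 CPM. WT libraries were at 0.231, 0.202, 0.230, 0.195 and 0.135 CPM, all below the lowest E47KO library (log2 fold change 0.70, SE 0.24). With at most 9 counts in each WT library, Trac passed the filter on low counts through the E47KO libraries alone. Its separation and its place among the higher genes are therefore given only as a description. Lck, a kinase of T cell signalling, stood at 0.65 (SE 0.33), and with the series as covariate at an unadjusted p of 0.0047. Cd3g, a chain of the CD3 complex of the T cell receptor, was on the other side at -0.46 (SE 0.32), with overlapping groups. None of the 12 passed the adjusted threshold by edgeR or by DESeq2.

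Of the NK cell genes 3 were tested, and none reached an unadjusted p under 0.05. Neutrophil genes gave 1 higher member of 4 tested (1.46% of all genes were higher), S100a8, with a log2 fold change of 1.20 (SE 0.43) and overlapping groups. Their summed level ran from 2.01 to 6.77 CPM in E47KO and from 2.30 to 2.99 CPM in WT. Itgax (CD11c) was the single higher gene of 5 dendritic cell genes, at 0.68 (SE 0.26). The 14 genes of Kupffer cells, the macrophages of the liver, held none at an unadjusted p under 0.05, and Clec4f, a Kupffer cell lectin, stood at -0.24 (SE 0.20). The 9 endothelial, 6 cholangiocyte and 16 hepatocyte genes tested likewise held none. Dcn, a collagen-binding proteoglycan, was the 1 higher member of 10 stellate cell and fibroblast genes, with 120 to 161 CPM in E47KO against 122, 76.6, 129, 96.3 and 89.8 CPM in WT (log2 fold change 0.47, SE 0.14). Dcn groups overlapped through WT replicates 1 and 3. With the series as covariate, and within the second series, 3 of the 10 were higher, Dcn, Col1a2 and Pdgfrb, and the list median of 0.23 became 0.28 and 0.37.

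Globin RNA, a sign of blood in the tissue, was lower in E47KO without passing the threshold. Hba-a1, the alpha chain, ran from 14.7 to 27.3 CPM in E47KO with a median of 20.8 CPM. The WT libraries held 54.9, 43.8, 27.0, 18.6 and 32.4 CPM. The 2 highest values were the WT libraries of the first series, and the log2 fold change of -0.76 (SE 0.24) became -0.31 within the second series. Hbb-bs, a beta chain, stood at -0.52 (SE 0.20), and -0.32 within the second series. Alpha and beta globin genes have near copies that can share reads. Among the 5 erythroid genes tested, Hba-a1 and Hbb-bs were lower at an unadjusted p under 0.05 (2.27% of all genes were). All 5 fold changes were negative, from -0.76 to -0.01. Alas2, a member of this list that is not a globin, was near level. It ran from 140 to 198 CPM in E47KO and from 122 to 196 CPM in WT, here per unscaled library total. Within the second series alone, where 1.75% of all genes were lower at that level, 0 erythroid genes were, with Hba-a1 and Hbb-bs still at negative fold changes. The part of blood content in the B cell counts was not tested.

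The 2 remaining genes to describe past the threshold were a parent gene and its copy. Tdg encodes thymine DNA glycosylase, an enzyme of base excision repair and active DNA demethylation. It removes thymine from mispairs with guanine, and it removes oxidised forms of methylcytosine. Gm9855 is annotated as a processed pseudogene, an intronless copy made from a messenger RNA. Both are on chromosome 10, Tdg (ENSMUSG00000034674) at 82629828 to 82650799 on the plus strand and Gm9855 (ENSMUSG00000085666) at 42054113 to 42055306 on the minus strand. The Tdg coding sequence lies in 9 exons and the 1194 bases of Gm9855 in 1. The pair differed at 9 bases, which made them 99.2% identical, with an identical run of up to 756 bases.

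The 60-base stretches with most of these differences are shown because they are where a read can tell the genes apart. They are in the sense direction from GENCODE vM21 (GRCm38), and capitals mark the differing bases.
Tdg, bases 841 to 900, chr10:82647309-82647368, plus strand: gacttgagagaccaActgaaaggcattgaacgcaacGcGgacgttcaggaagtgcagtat
Gm9855, bases 841 to 900, chr10:42054407-42054466, minus strand: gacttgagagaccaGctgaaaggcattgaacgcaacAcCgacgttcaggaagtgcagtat
Tdg, bases 1070 to 1129, chr10:82648596-82648655, plus strand: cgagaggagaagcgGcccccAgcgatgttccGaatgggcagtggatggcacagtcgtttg
Gm9855, bases 1070 to 1129, chr10:42054178-42054237, minus strand: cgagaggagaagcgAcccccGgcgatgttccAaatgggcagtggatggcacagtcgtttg

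Positions are counted from 1 at the A of the start codon, with the base of Tdg first. The first stretch differs by A855G, G877A and G879C, and the second by G1084A, A1090G and G1101A. The remaining differences are A98C, T993C and T1056C. A read that lies wholly within an identical run fits both places, and such reads are left out of gene counts as multimapping, so the counts of both genes rest on the differing bases and on sequence outside the shared 1194 bases and are uncertain.

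Gm9855 was read in all E47KO livers and practically not in WT livers. The E47KO libraries ran from 2.67 to 4.38 CPM with a median of 3.19 CPM, from 84 to 165 counts. WT values were 0, 0, 0.0256, 0 and 0.0269 CPM, that is 1 count in each of replicates 3 and 5. The lowest E47KO library was far above every WT library, and against a floor of 3 counts in each WT library Gm9855 rose at least 38.1-fold (adjusted p = 1.79e-06, edgeR's quasi-likelihood test). This call was kept under each of the 21 alternatives tried in untreated liver. With 0 or 1 count in each WT library, Gm9855 passed the filter on low counts through the E47KO libraries alone, so its p-value is given only as a description.

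Tdg went the other way. The E47KO libraries ran from 2.50 to 4.68 CPM with a median of 4.05 CPM. WT livers held 7.18, 8.71, 11.2, 10.9 and 11.6 CPM. Every E47KO library was below every WT library. Tdg fell with a log2 fold change of -1.35 (SE 0.18, adjusted p = 0.0171 by edgeR), and of -1.49 with the series as covariate. The call was lost without E47KO replicate 3, 4 or 6 or WT replicate 3, 4 or 5, with adjusted p-values by edgeR of 0.0761, 0.0671, 0.0625, 0.0856, 0.0725 and 0.0621, at fold changes of -1.28 to -1.36.

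Taken as 1 quantity, Tdg and Gm9855 together differed less. Their sum ran from 5.22 to 9.06 CPM in E47KO with a median of 7.14 CPM. In WT it was 7.18, 8.71, 11.2, 10.9 and 11.6 CPM. The difference of means of -2.75 CPM gave p = 0.0303 in a two-sided exact permutation test over all libraries, in which the smallest possible p is 0.00433. Both genes were picked because they differed in these same libraries, and the test does not take the number series into account. This p-value is therefore given only as a description. The groups overlapped through WT replicates 1 and 2, the WT libraries of the first series. Within each series every E47KO sum was below every WT sum: 5.22 against 7.18 and 8.71 CPM in the first, and 6.58 to 9.06 against 10.9 to 11.6 CPM in the second. Gm9855 made up 40 to 52.2% of the sum in E47KO. Mean Tdg was 60.7% lower in E47KO than in WT, and the sum 27.7% lower. How reads were shared out between the genes was not tested, since reads were not used here.

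**Figure D2:**
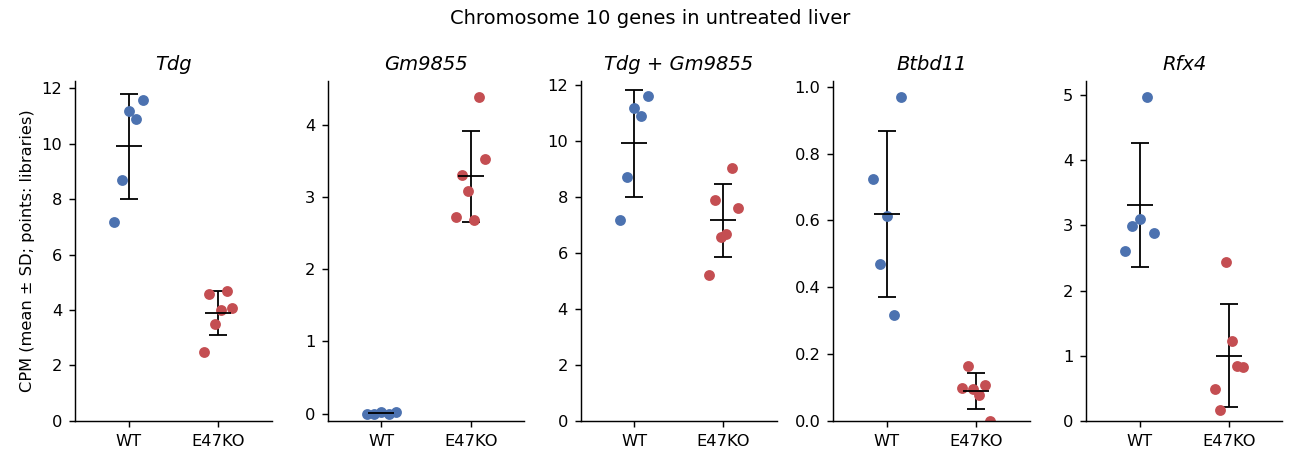
CPM of Tdg, Gm9855, their sum, Btbd11 and Rfx4 in untreated liver, each on its own axis from 0, with a point for each WT (blue, n = 5) and E47KO (red, n = 6) library and the mean ± SD in black. Gm9855 lies at 2.67 to 4.38 CPM in E47KO and at or near 0 in WT, Tdg, Btbd11 and Rfx4 lie lower in every E47KO library than in any WT library, and the sum of Tdg and Gm9855 overlaps between the genotypes over the 2 number series.

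Tdg lies 2.20 Mb from Tcf3, and further genes of this neighbourhood were lower in E47KO. A targeted gene can carry flanking DNA of the stem cells in which it was made into the strain it is crossed to; the labels do not name those cells, and the part of such DNA in the values was not tested. Within 10 Mb on either side lie 430 annotated genes, of which 214 were tested. At an unadjusted p under 0.05, 17 of them were lower (2.27% of all genes were) and 1 was higher. Of the 214, 5 were lower in every E47KO library than in any WT library, against 0.255% of all genes.

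The lower genes were close to Tcf3. Within 5 Mb 17 of 173 tested genes (9.83%) were at an unadjusted p under 0.05, all of them lower. With the series as covariate 24 were (13.9%, against 4.72% of all genes), 21 lower and 3 higher. From 5 to 10 Mb it was 1 of 41, from 10 to 20 Mb 8 of 86 (9.30%), from 20 to 40 Mb 7 of 122 (5.74%) and farther away 9 of 238 (3.78%). The bin of 10 to 20 Mb held both higher and lower genes, 3 and 5. Chromosome 10 had the highest share of all chromosomes, with 42 of 661 genes (6.35%), and chromosome 17 the next with 5.22%. Within the second series the count of lower genes within 10 Mb was 11, and it moved between 7, without WT replicate 2, and 32, without E47KO replicate 1. It was 11 without E47KO replicate 5 and 28 without WT replicate 3 or WT replicate 5.

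**Figure D3:**
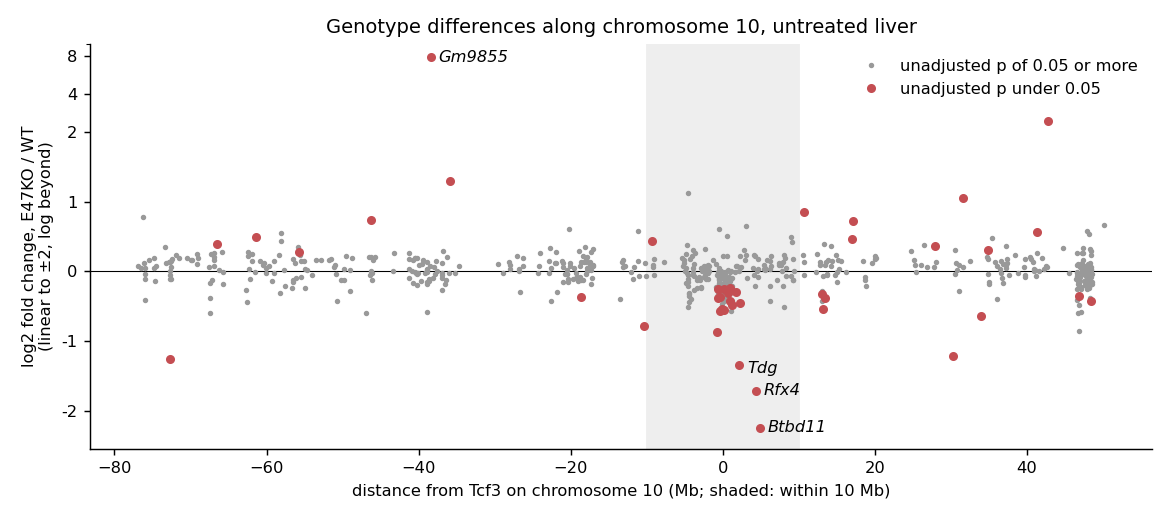
Log2 fold change of E47KO against WT for the tested genes of chromosome 10 by distance from Tcf3 in Mb, on an axis that is linear near 0 and logarithmic beyond, with genes at an unadjusted p under 0.05 in red and the 10 Mb on either side of Tcf3 shaded. Within 5 Mb of Tcf3 the 17 red genes all lie below 0, and Gm9855, outside the shaded part, lies highest with a fitted value that depends on the prior count because its WT counts are at 0 or 1.

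Btbd11 (ENSMUSG00000020042, 85386814 to 85660292), which encodes an ankyrin repeat and BTB domain protein, was the neighbour with the smallest p among those that did not pass. It lies 4.95 Mb from Tcf3. The E47KO libraries ran from 0 to 0.165 CPM with a median of 0.0957 CPM. In WT there were 0.725, 0.471, 0.613, 0.317 and 0.969 CPM. The groups did not overlap, and the log2 fold change was -2.73 (SE 0.45, adjusted p = 0.145 by edgeR and 9.74e-05 by DESeq2). In a fit over all 24 livers of global knockout and wild-type mice, which share 1 estimate of spread, the same contrast passed (adjusted p = 0.00507). The E47KO counts of Btbd11 were too low to pass the filter without the WT libraries, so its p-values are given only as a description.

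Rfx4 (ENSMUSG00000020037, 84756062 to 84906538), a winged-helix factor of the regulatory factor X family, lies 4.32 Mb away. It ran from 0.165 to 2.44 CPM in E47KO with a median of 0.841 CPM, and WT held 2.60, 2.99, 3.09, 4.97 and 2.88 CPM. Its ranges nearly touch but do not overlap (log2 fold change -1.71, SE 0.47). Nfyb (ENSMUSG00000020248, 82748701 to 82764144), a subunit of the CCAAT-binding factor NF-Y, lies 2.32 Mb away, next to Tdg. It ran from 17.4 to 22.9 CPM in E47KO with a median of 20.1 CPM, and WT held 24.9, 32.1, 27.7, 24.9 and 27.8 CPM. Nfyb too was separated, at a smaller log2 fold change of -0.45 (SE 0.10, adjusted p = 0.635 by edgeR). The nearest tested genes on either side of Tcf3 were Uqcr11, a small subunit of respiratory complex III, and Rexo1, an exonuclease. Uqcr11 had a log2 fold change of -0.40 (SE 0.29), and 0.07 within the second series, because both WT libraries of the first series, with 211 and 224 CPM, stood above the 3 others. Rexo1, at 0.107 Mb, ran from 17.2 to 19.4 CPM in E47KO against 19.6, 26.8, 22.3, 20.2 and 20.3 CPM in WT (log2 fold change -0.25, SE 0.10).

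The partners of Tdg in base excision repair and DNA demethylation were looked at next. Of 21 genes tested, Tdg itself included, 2 were lower at an unadjusted p under 0.05 (2.27% of all genes were) and 0 higher, and 17 had a negative fold change. With the series as covariate 1 was lower. Besides Tdg the other lower gene was Nthl1, a glycosylase for oxidised pyrimidines, at -0.35 (SE 0.16) and -0.17 within the second series. Polb, the repair polymerase, stood at -0.24 (SE 0.15), Apex1, the endonuclease that cuts the abasic site, at -0.13 (SE 0.15), and Parp1, a sensor of strand breaks, at -0.01 (SE 0.07). The median of the list was -0.13 against -0.01 for all genes, and -0.10 with the series as covariate.

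Of the E proteins and their inhibitors 7 genes were tested, and 0 were at an unadjusted p under 0.05. Per kilobase of exon, Id2 was read most, at a mean of 35.2 CPM per kb in E47KO and 34.5 in WT, followed by Id3 with 17.0 and 19.3, Id1 with 3.25 and 3.16, Tcf3 with 2.80 and 3.11, Tcf12 (HEB) with 1.52 and 1.39, Tcf4 (E2-2) with 0.430 and 0.383 and Id4 with 0.148 and 0.119. Id2 and Id3 were thus well above each E protein in both genotypes, whereas Id1 and Tcf3 were near each other. Id2 varied widely within groups, from 27.7 to 133 CPM in E47KO and from 33.7 to 114 CPM in WT, and its log2 fold change of 0.03 (SE 0.36) changed sign with the series as covariate, as did that of Tcf12 (0.12, SE 0.17). Tcf4 stood at 0.16 (SE 0.16) and Id3 at -0.19 (SE 0.30).

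GR and the proteins with which the study links E47 came next. Of 13 genes tested, 1 was lower at an unadjusted p under 0.05 and 0 higher. This was Med24, a Mediator subunit, with a log2 fold change of -0.25 (SE 0.11) and 10.7 to 15.1 CPM in E47KO against 14.8, 15.7, 14.2, 17.3 and 17.1 CPM in WT. Foxo1, a factor that acts on gluconeogenic promoters, stood at 0.28 (SE 0.15), or 0.06 within the second series, and Nr3c1, which encodes GR, at 0.16, or -0.02 with the series as covariate. Hnf4a and Rxra, nuclear receptors of hepatocytes, stood at 0.03 (SE 0.20) and 0.12 (SE 0.13).

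**Figure D4:**
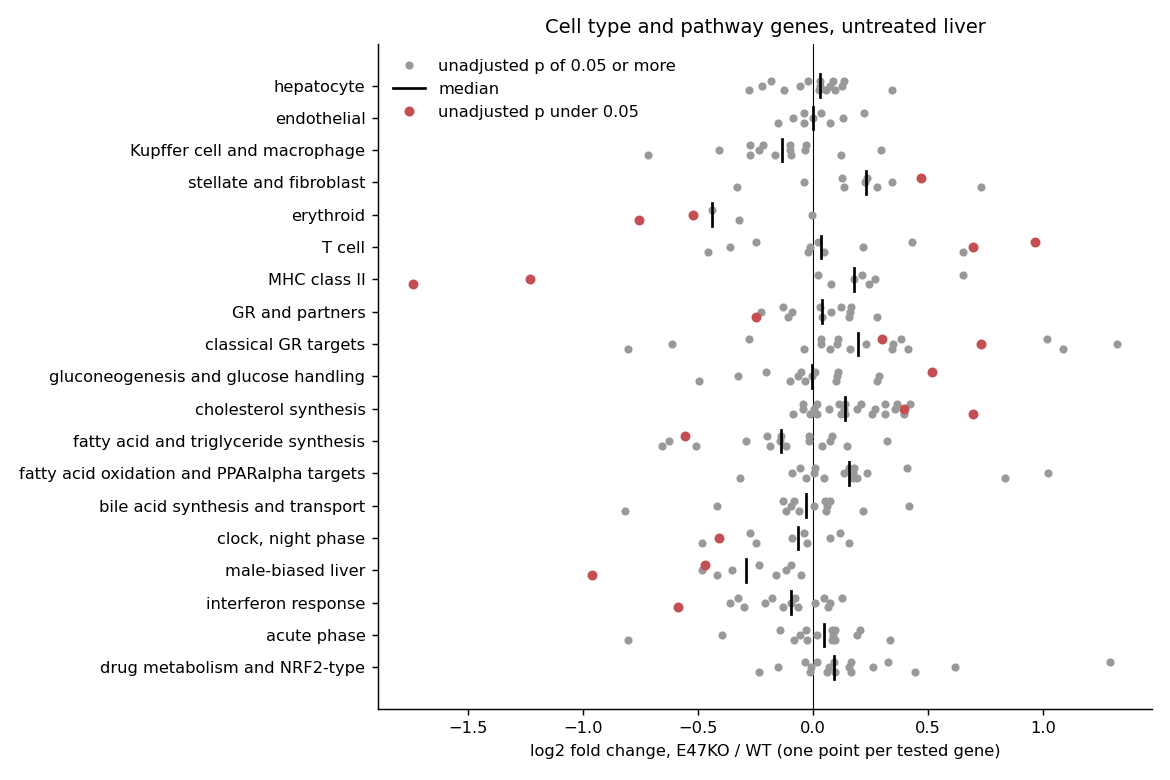
Log2 fold change of E47KO against WT for the tested members of 19 gene lists named on the axis, 1 row per list and 1 point per gene, with genes at an unadjusted p under 0.05 in red and a black bar for the median of the list. The B cell, base excision repair and immediate early lists are not plotted. Among the rows shown the points farthest left are H2-Ob and H2-DMb2 in the MHC class II row, and most genes of the glucose, lipid and bile acid rows are grey and lie on both sides of 0.

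The metabolic genes that the study names in its text showed 1 member of 11 at an unadjusted p under 0.05, and 3 with the series as covariate, Hmgcs1 and Igfbp1 among them, all of them higher. Pck1, the first committed enzyme of gluconeogenesis, stood at 0.11 (SE 0.18), G6pc, which releases free glucose, at 0.10 (SE 0.44), and Apoa4, a lipoprotein component, at -0.18 (SE 0.39). G6pc and Apoa4 changed sign when certain single libraries were left out. Igfbp1, a secreted binder of insulin-like growth factors, spread from 7.95 to 95.1 CPM in E47KO and from 3.63 to 59.99 CPM in WT. Its log2 fold change of 1.02 (SE 0.72) became 1.87 with the series as covariate, at an unadjusted p of 0.0253.

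Cholesterol synthesis had 21 of 25 genes with a positive fold change, and 2 of them, Idi1 included, were at an unadjusted p under 0.05 (1.46% of all genes were higher at that level). Idi1, the isomerase of isopentenyl diphosphate, ran from 49.9 to 123 CPM in E47KO against 57.9, 47.1, 58.9, 48.6 and 48.2 CPM in WT (log2 fold change 0.70, SE 0.23). The 2 groups overlapped in the lower part of the E47KO range. Hmgcs1, which condenses acetyl-CoA units early in the pathway, stood at 0.42 (SE 0.38). The median of the list was 0.14, and 0.35 with the series as covariate, under which 4 genes were higher (2.15% of all genes). Within the second series 1 was (1.66%).

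Other metabolic lists held few genes at this level. Of 20 classical GR targets 2 were higher (1.46% of all genes were) and 0 lower. The 2 were Errfi1, an inhibitor of the EGF receptor, at 0.30 (SE 0.13) and Cdkn1a, the p21 cell cycle inhibitor, at 0.73 (SE 0.33). With the series as covariate 3 were higher, Igfbp1 being the third, and within the second series 1. Of 15 genes of gluconeogenesis and glucose handling 1 was higher, Ppargc1a, a coactivator raised in fasting, at 0.51 (SE 0.19), and 0 lower, and within the second series 0 were higher. Of 17 genes of fatty acid and triglyceride synthesis 1 was lower, Mlxipl (ChREBP), the carbohydrate-responsive activator of lipogenesis, at -0.56 (SE 0.23), and 0 with the series as covariate (2.56% of all genes). The 17 genes of fatty acid oxidation, the 14 of bile acid synthesis and transport, the 16 acute phase genes and the 18 of drug metabolism held 0 in both directions, apart from 1 higher gene with the series as covariate, Ppara, in the first. In the first of these lists Fgf21, a hormone of the fasted liver, stood at 1.02 (SE 0.52), and in the bile acid list Cyp7a1, the rate-limiting enzyme of bile acid synthesis, at 0.42 (SE 0.48).

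Genes with a sex bias in mouse liver were set apart as a list. All 10 male-biased genes had a negative fold change, with a median of -0.29 against -0.01 for all genes. Of the 10, 2 were lower at an unadjusted p under 0.05 (2.27% of all genes were). Cyp2u1, a fatty acid hydroxylase, ran from 10.9 to 25.2 CPM in E47KO with a median of 16.9 CPM. The WT libraries held 39.4, 56.2, 31.4, 27.97 and 15.3 CPM. The groups overlapped through WT replicate 5, and the log2 fold change was -0.96 (SE 0.30). Hsd3b5, a male-specific steroid dehydrogenase, ran from 108 to 298 CPM in E47KO against 281, 322, 242, 286 and 290 CPM in WT (log2 fold change -0.47, SE 0.21). With the series as covariate, or within the second series, Cyp2u1 alone was at that level. Of 5 female-biased genes tested 1 was higher, Cyp2a4, a steroid hydroxylase, with a fold change of 6.06 (SE 1.95) that came from a single library. E47KO replicate 2 held 476 CPM and the other libraries of both genotypes at most a few CPM, and without it the fold change was 0.54. With the series as covariate 0 of the 5 were higher. Cyp2a4 also has a near copy, Cyp2a5, so its counts are uncertain.

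Of 10 immediate early genes tested, 2 were higher at an unadjusted p under 0.05 (1.46% of all genes were). These were Fos at 0.69 (SE 0.26) and Btg2 at 0.76 (SE 0.34), and Egr1 stood at 1.33 (SE 0.68). All 3 are induced quickly by many stimuli. The other members lay on both sides, 6 of the 10 in all with a positive and 4 with a negative fold change and a median of 0.06. Nr4a1, an orphan nuclear receptor of this group, stood at -1.27 (SE 0.71), and at 0.58 within the second series. WT replicate 2 held 9.62 CPM, far above all other libraries, and without it the fold change was 0.35. Within the second series 3 were higher, Fos, Btg2 and Junb. Of 15 interferon-response genes 1 was lower, Isg15, a ubiquitin-like protein, at -0.59 (SE 0.17), and with the series as covariate 2 were (2.56% of all genes), Stat2 being the other. Among the clock genes 0 of 4 of the day phase and 1 of 10 of the night phase differed at this level, Per2, a repressor of the clock, at -0.41 (SE 0.17). The time of day at which livers were taken was not used here.

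Among protein-coding genes with a mean of at least 1 CPM that did not pass, the 8 with the smallest p in each direction had log2 fold changes between -1.71 and 0.95. The higher ones were Gabra3 (0.95, SE 0.20), Eda (0.68, SE 0.16), Ptgfrn (0.63, SE 0.15), Galnt15 (0.89, SE 0.23), Robo1 (0.90, SE 0.23), Ikbip (0.85, SE 0.22), Htra3 (0.79, SE 0.21) and H2-Q1 (0.88, SE 0.24), which has near copies among the MHC genes. Gabra3, a subunit of the GABA type A receptor, ran from 1.99 to 2.96 CPM in E47KO against 1.42, 1.14, 1.99, 1.15 and 0.942 CPM in WT, so that its ranges met at 1 value. DESeq2 called it (adjusted p = 0.00886). Ptgfrn, a partner of tetraspanins, ran from 3.35 to 5.55 CPM in E47KO against 2.67, 2.29, 2.73, 2.83 and 3.23 CPM, and its groups did not overlap.

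The lower ones were Gba2 (-0.48, SE 0.10), Nfyb, Lrp2bp (-0.97, SE 0.21), Pnpla6 (-0.34, SE 0.08), Bcl3 (-0.85, SE 0.22), Engase (-0.41, SE 0.11), Traf2 (-0.34, SE 0.09) and Rfx4. Gba2, the non-lysosomal glucosylceramidase, ran from 11.4 to 13.6 CPM in E47KO against 15.3, 16.2, 16.9, 16.7 and 21.7 CPM in WT. Bcl3, an atypical IkappaB protein, ran from 7.72 to 14.4 CPM against 17.2, 32.5, 15.0, 15.5 and 17.5 CPM. Of these 8 genes all but Lrp2bp were separated between the genotypes, against 0.255% of all tested genes separated as lower. The 8 were chosen by their small p in these same libraries, so their separation is no further support. None passed the adjusted threshold by edgeR, and 3 did by DESeq2, Gba2, Nfyb and Lrp2bp (adjusted p = 0.0280, 0.0425 and 0.0463).

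Livers of mice that drank corticosterone (Cort, 4 E47KO and 4 WT) or dexamethasone (Dex, 3 and 2) for 3 weeks gave further samples of the same genotypes, with controls of their own. Treatment and library preparation cannot be told apart there, so only effects of the genotype are set beside each other. In a joint fit over 24 livers and 16153 genes, Gm9855 was higher in E47KO under each condition. It was at 2.81 to 3.63 CPM against 0 counts under Cort and at 2.79 to 4.34 CPM against 0 to 0.0572 CPM under Dex. The adjusted p-values by edgeR were 1.17e-08 and 1.14e-05. With at most 1 count in any WT liver, Gm9855 entered the joint fit through the E47KO livers alone. These p-values are therefore given only as a description. Tdg fell under Cort as well (log2 fold change -1.32, SE 0.19, adjusted p = 0.00305 by edgeR), and under Dex it stood at -0.76 (SE 0.24, adjusted p = 0.777 by edgeR). The difference between these effects, Dex minus untreated, was 0.58 (SE 0.29) and did not pass the threshold. Btbd11 had 0 counts in the 3 E47KO livers under Dex against 0.750 to 1.14 CPM in WT (adjusted p = 0.00380 by edgeR), and under Cort its log2 fold change was -2.08 (SE 0.52). With at most 6 counts in any E47KO liver, Btbd11 entered the joint fit through the WT livers alone. Its p-value is therefore given only as a description. Rfx4 stood at -2.19 (SE 0.53) under Cort and at -1.001 (SE 0.62) under Dex.

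**Figure D5:**
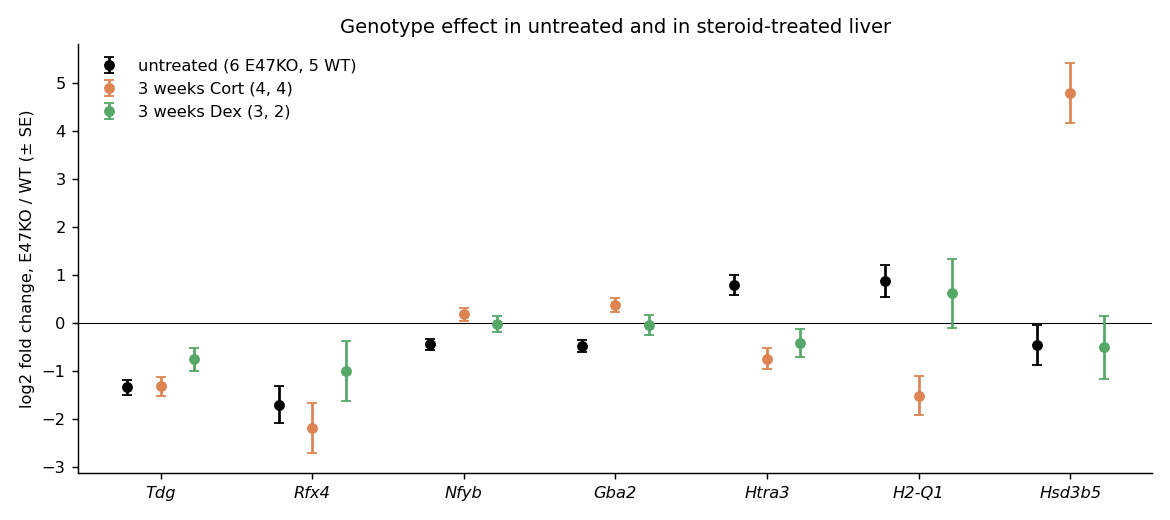
Log2 fold change of E47KO against WT ± SE for 7 genes in untreated (black), Cort (orange) and Dex (green) livers, from the joint fit over 24 livers. Tdg and Rfx4 lie below 0 in all 3 conditions, and Hsd3b5 lies at -0.47 in untreated livers and at 4.80 under Cort.

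B cell genes with few counts could not be compared in this way. Under steroid treatment the WT livers themselves held only 0.0347 to 0.204 CPM of Cd79a under Cort and at most 0.0572 CPM under Dex, at most 5 counts. Cd79b and H2-Ob were at 0 to 4 counts in all of these WT livers. A loss of these 3 in E47KO was thus not detectable in the treated groups from the counts used. For Cort livers those counts come from a single strand column with 50.1% of strand-resolved counts, so they are lower than the libraries could give. The immunoglobulin genes Ighm and Igkc had more counts. Under Dex, Ighm was at 0.233 to 0.500 CPM in the 3 E47KO livers against 1.55 and 5.03 CPM in the 2 WT livers (log2 fold change -3.28, SE 0.96, adjusted p = 0.652 by edgeR). Igkc was at 0 to 0.399 CPM there against 1.55 and 2.80 CPM (log2 fold change -3.14, SE 0.94, adjusted p = 0.672 by edgeR). Neither gene passed the threshold under Dex. With only 3 and 2 livers the lack of overlap there says little, and its share over all genes was not counted. Under Cort both overlapped, at -0.89 (SE 0.78) for Ighm and 0.30 (SE 0.63) for Igkc.

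The test of the difference between genotype effects called 1 gene between Cort and untreated livers (0.00619% of 16153, with 1050 genes or 6.5% at an unadjusted p under 0.05) and 0 between Dex and untreated livers, where 599 genes (3.71%) were at an unadjusted p under 0.05 and DESeq2 called 2. The gene was Hsd3b5. In untreated liver its fold change was -0.47 (SE 0.42 in the joint fit), and under Cort E47KO livers held 17.0 to 75.6 CPM against 0.236 to 2.15 CPM in WT, a log2 fold change of 4.80 (SE 0.62). The difference was 5.26 (SE 0.73, adjusted p = 0.00508 by edgeR). Under Dex the effect was -0.51 (SE 0.65). Pck1 stood at 0.11 (SE 0.27), -0.03 (SE 0.31) and -0.24 (SE 0.40), none of them past the threshold.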

How the data were processed

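Poly(A) RNA of 6 E47KO and 5 WT untreated livers was compared, and 13 livers under Cort or Dex served for the joint fit. The authors mapped reads to mm10 with the Ensembl annotation and deposited raw read counts per gene, made with STAR (2.4.2a per the labels, which also name HTSeq and DESeq2), not normalized and not pooled. Stranded files hold a column for each strand, and the fuller one was used, with 96.9 to 97.5% of strand-resolved counts in untreated livers and 50.1% in Cort livers. The Cort libraries, though labelled stranded, thus split near evenly between the strands, and the single column left out many of their counts. WT replicate 2 under Cort, for example, kept 28.8 M counts against 54.6 M in the unstranded column. Entries that name no gene (21.4 to 32.1% in untreated libraries) stayed out of library sizes and tests. Tables of the authors' own comparisons hold fold changes and p-values and were not used. Depth was 31.7 to 39.8 M counts in genes per untreated library, which leaves counting error small except for genes with few counts.

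Groups were taken from the sample titles. Counts were tested with edgeR 4.0.16 (R 4.3.3), scaled by TMM after filterByExpr, by its quasi-likelihood F test on genotype alone, with Benjamini-Hochberg adjustment at 0.05. SE was derived from the fold change and its F value. The joint fit gave each of 6 groups a mean. Floors are 3 counts per library. Symbols and positions came from GENCODE vM21 for 45143 of 45706 identifiers. In each of 25 replicate pairs the counts differed beyond sampling noise (chi-square over its degrees of freedom, 36.9 to 215). The fit was tested on simulated data.

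The members and gene lists were chosen with earlier results of these data known. Named genes were Tcf3, those past the threshold, the 8 of smallest p per direction that did not pass, up to 4 members of smallest p and up to 2 of highest level per list, all members of 2 lists (E proteins and the study's metabolic genes), the 4 of smallest p within 10 Mb of Tcf3 and its neighbours. Further B cell genes, Nr3c1 and members of other lists were named after seeing their values. Some genes, one of them past the threshold, are not reported here. Lists for acinar pancreas, adipocyte and skeletal muscle held 2, 4 and 8 tested genes, with 0 at an unadjusted p under 0.05. Alternatives were DESeq2 1.42.0, RLE size factors, library totals, filters, the unstranded column, the series as covariate, the second series alone, a replicate block and leaving out each library.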

Additional observations from a re-analysis of the deposited data

Results flagged for a closer look

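In groups of this size chance sets about 1 in 20 apart by Dixon's criterion, which compares the gap between an extreme library and its nearest neighbour with the range of its group. With 91 genes checked in each genotype, 16 libraries were set apart. In WT livers these were Tcf3 in replicate 2 (16.8 CPM), Bcl3 in replicate 2 (32.5 CPM), Nr4a1 in replicate 2 (9.62 CPM), Rfx4 in replicate 4 (4.97 CPM), Ighm in replicate 1 (21.0 CPM) and Nr0b2, a repressor of bile acid synthesis, in replicate 1 (60.2 CPM), all higher than the other libraries. Acacb, an acetyl-CoA carboxylase, was low in WT replicate 5 (46.0 CPM), where Klf9, a GR target, was high (115 CPM) and Gba2 was high (21.7 CPM). In E47KO livers, S100a8 was high in replicate 3 (1.25 CPM), Cyp2a4 in replicate 2 (476 CPM) and Fgf21 in replicate 5 (2.36 CPM). Tcf4 (8.43 CPM), Tcf12 (15.99 CPM) and Nr3c1 (52.4 CPM) were low in replicate 1, the single E47KO library of the first series, and Ifit3, an interferon-response gene, was low in replicate 6 (6.44 CPM).

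The effect of the genotype on Hsd3b5 differed between Cort and untreated livers by 5.26 on the log2 scale (SE 0.73, adjusted p = 0.00508, edgeR's quasi-likelihood test over the joint fit). Every E47KO liver under Cort, at 17.0 to 75.6 CPM, lay above every WT liver under Cort, at 0.236 to 2.15 CPM.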

How the results depend on the processing

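The count of 4 genes past the adjusted threshold was 20 with DESeq2, 9 without a filter on low counts and 2 with at least 1 CPM in 5 libraries, under which Cd79a was not tested. The 3.73% of tested genes at an unadjusted p under 0.05 became 3.598% of a longer list without a filter and 2.15 to 7.63% when single libraries were left out (2.15% without WT replicate 2, 7.63% without E47KO replicate 1, 5.75% without WT replicate 5). Numbers of replicates did not pair samples: deviations of same-numbered libraries correlated at 0.759, -0.0542, 0.0175, 0.243 and 0.440, and with the number as a replicate block 6.49% of genes, or 6.58% with the sixth mutant kept, were at an unadjusted p under 0.05, and 3 passed the adjusted threshold. The 5 B cell genes lower at that level were 18 with DESeq2, 19 without a filter and 1 with at least 1 CPM in 5 libraries, which removes most of the list. The 17 lower genes within 10 Mb of Tcf3 were 11 within the second series and 7 to 32 when single libraries were left out. DESeq2 called 21 differences for Cort against untreated livers in place of 1 and 2 for Dex in place of 0, and without WT Dex replicate 1, which leaves 1 WT library assumed to vary like the others, 16 were called. Of 91 single genes 82 kept their direction under all 21 alternatives. Within the second series Tcf3 was at 0.040, Uqcr11 at 0.072 and Nr4a1 at 0.58, and with the series as covariate Id2 was at -0.29, Tcf12 at -0.0098 and Nr3c1 at -0.021. Under the block G6pc was at -0.38, or -0.39 with the sixth mutant kept. Without single libraries Id2 ran from -0.17 to 0.21, Id1 from -0.23 to 0.20, Nr4a1 from -1.53 to 0.35, G6pc from -0.12 to 0.32 and Apoa4 from -0.38 to 0.14. The difference for Tdg, Cort minus untreated, ran from -0.085 to 0.11, and that for Gm9855, Dex minus untreated, from -1.86 to 2.06 without either WT Dex replicate, where WT counts are 0 to 1. The cause of these shifts was not tested.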
